A study of Mus musculus with 18 samples.

Results

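Themis2 and 9 genes that mark macrophages of the heart (Adgre1, Cd68, Csf1r, C1qa, C1qb, C1qc, Mrc1, Lyve1 and Timd4) were followed in mouse left ventricle. These are 10 of the 55450 genes in the count table, and all 10 were among the 16270 genes with enough counts to test. Themis2 was selected on a measured value of these data, its difference between diets in Gαq hearts. Its values in comparisons that use Gαq libraries are therefore given as a description with no test. The other 9 genes are common macrophage markers and were set beside it.

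Hearts of male FVB/N mice were sequenced, 1 library per heart and 18 libraries in all. WT mice were littermates without the transgene, and Gαq mice carried a transgene that overexpresses the G protein subunit Gαq (gene Gnaq) in the heart, a model of dilated cardiomyopathy. The promoter that drives it is not given in the sources used here. Both genotypes ate a control diet (CD) or chow holding 0.5 mg/g of the SGLT2 inhibitor ertugliflozin (ERTU), which blocks glucose reuptake in the kidney, for 16 weeks from 4 to 20 weeks of age. Of the Gαq hearts 5 were on control diet (Gαq CD) and 4 on ertugliflozin (Gαq ERTU), and of the WT hearts 4 were on control diet (WT CD) and 5 on ertugliflozin (WT ERTU). Libraries are named by their group and the number in the table, which runs over the whole series.

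Libraries held 15383566 to 20908363 counted read pairs, and the ranges of the 4 groups overlapped. Gnaq was 45.5 to 230 CPM (counts scaled to a common library size) in the 9 WT libraries and 1641 to 11672 CPM in the 9 Gαq libraries, so every library matched its genotype label. The ventricular muscle genes were abundant in every library, Myh6 at 25032 to 52851 CPM and Myl2 at 5100 to 9473 CPM.

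Macrophages live among the cardiomyocytes of the healthy heart, where they clear dying cells and debris. Part of them descends from embryonic precursors and renews itself in place, and part is replaced by monocytes from the blood, more so after injury. Adgre1, which encodes the surface protein F4/80, Cd68, a glycoprotein of lysosomes, and Csf1r, the receptor for the macrophage growth factor CSF1, are expressed by macrophages in general. C1qa, C1qb and C1qc encode the chains of C1q, which starts the classical complement pathway and is made mostly by macrophages. Mrc1 (the mannose receptor), Lyve1 (a hyaluronan receptor) and Timd4 (a receptor for phosphatidylserine on dying cells) are used as markers of resident macrophages. Lyve1 is also made by lymphatic endothelium. Themis2 is an adaptor protein of macrophages and B cells that binds the signalling proteins Grb2 and Vav.

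Themis2 (ENSMUSG00000037731) lies on the reverse strand of chromosome 4 in build GRCm38, from 132781843 to 132796387, with 6 exon blocks of 3079 bases. No annotated gene overlaps it. The C1q genes lie on the same strand of the same chromosome in a row, C1qb from 136880129 to 136886187, C1qc from 136889804 to 136893065 and C1qa from 136895917 to 136898803. Adgre1 lies on chromosome 17 from 57358691 to 57483527, Cd68 on chromosome 11 from 69664213 to 69666153, Mrc1 on chromosome 2 from 14229392 to 14332057, Lyve1 on chromosome 7 from 110850607 to 110863239 and Timd4 on chromosome 11 from 46810800 to 46844332. C1qb and C1qc are separated by 3617 bases, and C1qc and C1qa by 2852 bases. The sequence before the start of Themis2 and of 2 C1q genes is shown because the C1q genes went together between libraries. Their correlation with Themis2 was lower, which its low counts do not allow to be read as a difference in regulation. Sequences are from RefSeq (GRCm38.p6), which gave a promoter for 6 of the 10 genes. They run 5′ to 3′ on the reverse strand and stop at or before the start of the annotated gene, at chr4:132796388-132796614 for Themis2, chr4:136886201-136886450 for C1qb and chr4:136893066-136893164 for C1qc. Capitals mark GAGGAA, a motif bound by the myeloid factor PU.1, or its reverse complement TTCCTC. Other forms of the PU.1 site were not searched for.
Themis2: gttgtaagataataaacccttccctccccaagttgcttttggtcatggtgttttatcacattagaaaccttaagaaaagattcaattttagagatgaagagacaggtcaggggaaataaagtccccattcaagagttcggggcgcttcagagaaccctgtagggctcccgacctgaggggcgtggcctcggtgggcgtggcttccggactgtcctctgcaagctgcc
C1qb: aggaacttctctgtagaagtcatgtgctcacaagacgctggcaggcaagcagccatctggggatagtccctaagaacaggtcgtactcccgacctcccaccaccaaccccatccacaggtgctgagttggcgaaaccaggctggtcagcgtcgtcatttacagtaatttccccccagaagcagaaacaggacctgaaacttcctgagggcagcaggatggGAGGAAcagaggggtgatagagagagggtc
C1qc: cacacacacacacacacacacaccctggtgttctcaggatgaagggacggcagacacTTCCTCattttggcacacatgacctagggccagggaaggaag
In the 250 bases before the RefSeq start, C1qb, C1qc and Cd68 each held 1 match on either strand, Mrc1 held 3, and Themis2 and Timd4 held 0. Of 32851 mouse promoters of that length, 23.3% held a match. A match describes these letters and is not a measured binding site, and no match says only that these letters are not in this window.

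Themis2 was highest in Gαq hearts on control diet and lowest in Gαq hearts on ertugliflozin. In WT CD it was 5.19, 5.30, 5.85 and 6.28 CPM, and in Gαq CD it was 6.33, 7.79, 6.95, 7.27 and 6.42 CPM. In WT ERTU it was 4.92, 4.74, 5.54, 4.77 and 5.15 CPM, and in Gαq ERTU it was 4.45, 3.94, 4.24 and 3.72 CPM. The 4 Gαq ERTU libraries lay below the other 14, and the 5 Gαq CD libraries lay above the other 13. From the highest, the mean level was 6.95 ± 0.607 CPM (SD, n = 5) for Gαq CD, 5.65 ± 0.506 CPM (SD, n = 4) for WT CD, 5.02 ± 0.332 CPM (SD, n = 5) for WT ERTU and 4.09 ± 0.321 CPM (SD, n = 4) for Gαq ERTU. In that order, WT CD and WT ERTU were the only neighbours whose libraries overlapped. Whole ventricle was sequenced, so a lower value from fewer cells and one from less RNA per cell cannot be told apart here or for any gene that follows.

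These are low counts, 71 to 161 read pairs per library. The coefficient of variation between libraries of a group was 6.61% to 8.95%. Counting error alone gives 8.69% to 11.6% at these counts, so the libraries of a group differed by no more than read sampling would in 3 of the 4 groups, and by 8.73% against 8.69% in Gαq CD.

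The fitted log2 change of Themis2 with ERTU in Gαq was -0.77 ± 0.12 (SE), 1.70-fold lower. This is the value on which the gene was selected, with an adjusted p of 0.0459 by the quasi-likelihood test of edgeR against a threshold of 0.05. Lcp2, the gene with the next smallest p, had an adjusted p of 0.236. With any 1 library left out, the adjusted p of Themis2 was 0.0528 or more and its log2 change was -0.81 to -0.72. The level of the transgene also differed between these groups. Gnaq was 7473 ± 3818 CPM on CD (SD, n = 5) and 3216 ± 1371 CPM on ERTU (SD, n = 4) in Gαq hearts, with overlapping ranges, and its part in the values of Themis2 was not tested. The other comparisons share those libraries. The log2 change was 0.30 ± 0.12 (SE) for Gαq on CD and -0.30 ± 0.12 (SE) for Gαq on ERTU.

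The edgeR fit takes its estimate of spread from all 18 libraries, and the selection of Themis2 rested on it too. The only difference of Themis2 that the selection did not use is ERTU in WT. There the log2 change was -0.17 ± 0.12 (SE), 1.12-fold lower, and did not pass (edgeR, adjusted p = 1.00). The exact permutation test of log2 CPM over the 126 possible assignments of libraries to diets gave a two-sided p of 0.0556. The groups overlapped, with WT ERTU library 13 above WT CD libraries 1 and 2.

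**Figure D1:**
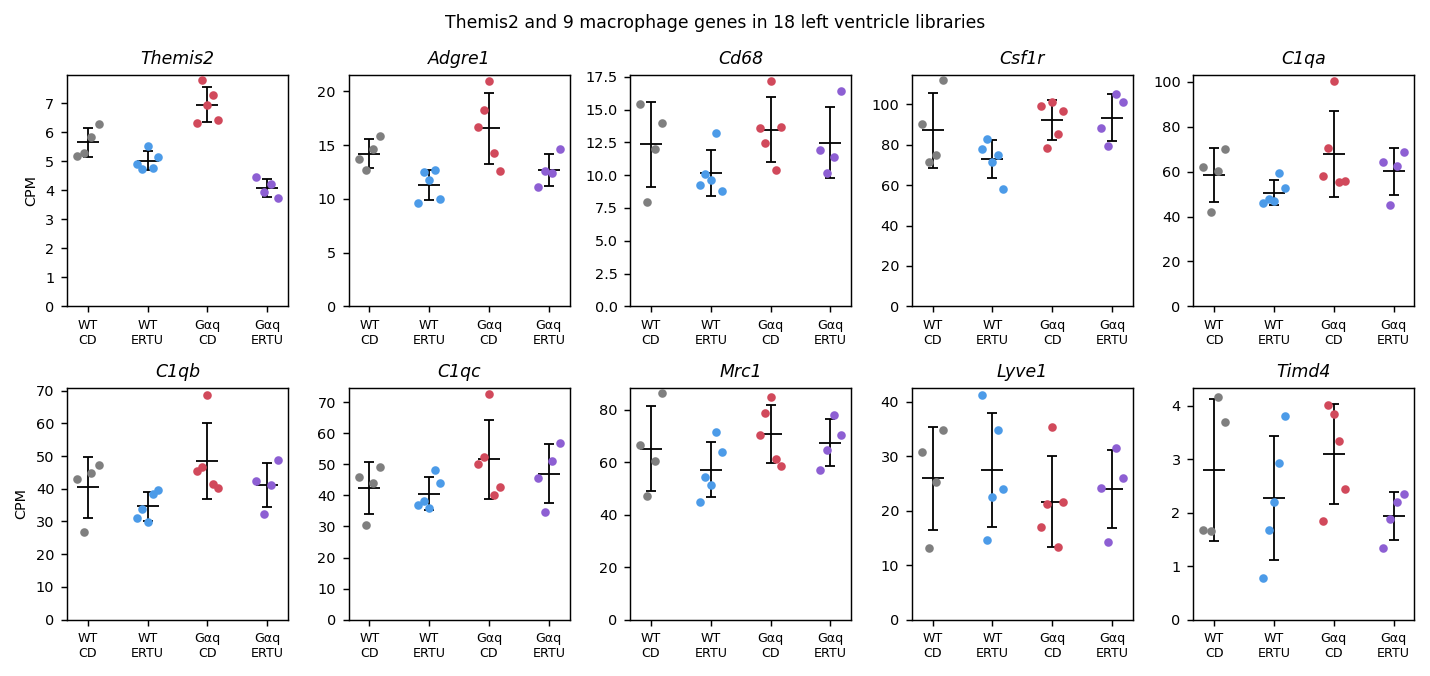
CPM (y axes, linear from 0) of Themis2 and the 9 macrophage genes in each of the 18 libraries (points), with the mean and SD of each group (black bars) by genotype and diet. Themis2 in Gαq CD (6.33 to 7.79 CPM) lies above the other groups, with the highest WT CD library at 6.28 CPM, a gap within counting error. In Gαq ERTU (3.72 to 4.45 CPM) it lies below them. For each of the other genes the libraries of every group overlap those of another group.

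Adgre1 was the general macrophage gene that differed most with diet. It was 13.7, 12.6, 14.6 and 15.8 CPM in WT CD and 9.65, 12.5, 11.7, 12.7 and 9.99 CPM in WT ERTU. In Gαq CD it was 16.7, 18.2, 21.0, 14.2 and 12.6 CPM, and in Gαq ERTU 11.1, 12.6, 12.4 and 14.6 CPM. ERTU libraries were mostly the lower ones in both genotypes, with a narrow overlap in WT and a wider one in Gαq. With genotype in the model the log2 change with diet was -0.36 ± 0.096 (SE), 1.28-fold lower, with an unadjusted p of 0.00133 and an adjusted p of 0.635 (edgeR). It was -0.33 ± 0.14 (SE) in WT and -0.38 ± 0.14 (SE) in Gαq.

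Cd68 was 12.3 ± 3.27 CPM on CD (SD, n = 4) and 10.2 ± 1.76 CPM on ERTU (SD, n = 5) in WT hearts. In Gαq hearts it was 13.5 ± 2.47 CPM on CD (SD, n = 5) and 12.5 ± 2.72 CPM on ERTU (SD, n = 4). All 4 groups overlapped. Csf1r was 87.1 ± 18.5 CPM on CD (SD, n = 4) and 73.0 ± 9.45 CPM on ERTU (SD, n = 5) in WT hearts. In Gαq hearts it was 92.2 ± 9.89 CPM on CD (SD, n = 5) and 93.4 ± 11.8 CPM on ERTU (SD, n = 4). Csf1r thus had its highest mean in the group where Themis2 had its lowest. The order of those Csf1r means was within their spread. The log2 change of Csf1r by genotype was 0.22 ± 0.096 (SE), with an unadjusted p of 0.0341 and an adjusted p of 0.121 (edgeR). Without WT CD library 5, the highest Csf1r library at 112 CPM, it was 0.29 with an adjusted p of 0.0169. Csf1r shares 873 exon bases with Hmgxb3 on the other strand, and the sources used here do not make clear whether counting used strand. Hmgxb3 itself changed by -0.0019 ± 0.065 (SE) in log2 by genotype.

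The C1q chains were the most abundant of the 10 per length of exon, C1qa at 57.1, C1qb at 37.9 and C1qc at 23.5 CPM per kb on average over the 18 libraries. Csf1r followed at 14.9, Mrc1 at 10.2, Cd68 at 9.62, Lyve1 at 8.49 and Adgre1 at 4.24 CPM per kb. Themis2, at 1.78 CPM per kb, was above only Timd4 at 1.17 CPM per kb. C1qa was 41.9 to 70.2 CPM in WT CD, 46.2 to 59.4 CPM in WT ERTU, 55.4 to 100 CPM in Gαq CD and 45.0 to 68.7 CPM in Gαq ERTU. The lowest library was WT CD 2 and the highest Gαq CD 8 for all C1q chains. All 4 groups overlapped for C1qa and C1qc. For C1qb, WT ERTU (29.8 to 39.8 CPM) lay just below Gαq CD (40.2 to 68.7 CPM), and the other groups overlapped.

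C1qb stood at 0.636 to 0.780 of C1qa in CPM over the 18 libraries, with a median of 0.688. C1qc stood at 0.701 to 0.859 of C1qa, with a median of 0.765. In WT this second ratio did not overlap between diets, at 0.701 to 0.739 on CD and 0.764 to 0.827 on ERTU. In Gαq it overlapped, at 0.722 to 0.859 on CD and 0.706 to 0.827 on ERTU. The ratio of C1qb to C1qa overlapped between diets in both genotypes, and neither ratio was tested. By genotype the log2 changes were 0.23 ± 0.12 (SE) for C1qa, 0.26 ± 0.12 (SE) for C1qb and 0.25 ± 0.12 (SE) for C1qc, with adjusted p of 0.193, 0.136 and 0.159 (edgeR). Without Gαq CD library 8 they were 0.15, 0.18 and 0.17. Changes with ERTU in Gαq were -0.18 ± 0.17, -0.24 ± 0.17 and -0.13 ± 0.17 (SE), and none passed (adjusted p of 0.790, 0.709 and 0.845, edgeR).

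Among the receptors of resident macrophages, Mrc1 was 65.1 ± 16.2 CPM on CD (SD, n = 4) and 57.2 ± 10.6 CPM on ERTU (SD, n = 5) in WT hearts. In Gαq hearts it was 70.7 ± 11.1 CPM on CD (SD, n = 5) and 67.5 ± 8.89 CPM on ERTU (SD, n = 4). Lyve1 ran the other way by genotype, with a log2 change of -0.22 ± 0.22 (SE), equal to its error. It varied most among the more abundant genes, from 13.1 CPM in WT CD library 2 to 41.2 CPM in WT ERTU library 11, and its coefficient of variation within groups was 30.2% to 38.5% where counting error gives 4.79% to 5.15%. WT ERTU library 11 held the highest Lyve1 and the lowest Timd4, Adgre1 and Mrc1 of all 18 libraries.

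Timd4 had the fewest counts of the 10 genes, 13 to 84 read pairs per library, and its coefficient of variation within groups was 22.9% to 50.9% where counting error gives 13.5% to 17.6%. It was 1.67, 1.65, 4.17 and 3.70 CPM in WT CD and 0.780, 1.67, 2.19, 2.94 and 3.80 CPM in WT ERTU. In Gαq CD it was 1.84, 4.02, 3.84, 3.34 and 2.44 CPM, and in Gαq ERTU 1.34, 1.88, 2.20 and 2.34 CPM. The groups overlapped throughout. Its log2 change with ERTU in Gαq, -0.67 ± 0.37 (SE), was nearest in size to that of Themis2 among the 9, with a larger error and an adjusted p of 0.656 (edgeR).

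None of the 9 macrophage genes passed the threshold in any of the 7 comparisons by edgeR or by DESeq2. By genotype with diet in the model, 0 of 9 were called and 2 (Csf1r and C1qb) had an unadjusted p under 0.05, where 19.6% of all genes were called. By diet with genotype in the model, 0 of 9 were called and 1 (Adgre1) had an unadjusted p under 0.05, with 0% of all genes called. For Gαq on CD the count was 0 of 9 with none under 0.05 unadjusted, against 8.10% of all genes. For Gαq on ERTU it was 0 of 9 with 1 (Csf1r) under 0.05 unadjusted, against 8.17%. For ERTU in WT it was 0 of 9 with 1 (Adgre1) under 0.05 unadjusted, against 0%. For ERTU in Gαq it was 0 of 9 with 1 (Adgre1) under 0.05 unadjusted, against 0.00615% of all genes, which is Themis2 alone. For the interaction, the difference between the diet changes of the genotypes, it was 0 of 9 with none under 0.05 unadjusted, against 0% of all genes.

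The signs of these small changes leaned one way. By genotype 7 of the 9 were higher in Gαq (all but Lyve1 and Timd4, of which Timd4 turns to higher with scaling by library totals), with a median log2 change of 0.21 against 0.0038 over all genes tested. By diet 8 of the 9 were lower on ERTU (all but Lyve1), with a median of -0.19 against -0.0017 over all genes. The 9 genes share libraries and went together between libraries, so these are not separate observations. The groups of libraries overlapped for all 9 genes in each of the 4 pairs of groups. Themis2 did not overlap for Gαq on CD, where 9.29% of all genes did not, for Gαq on ERTU (10.9%) or for ERTU in Gαq (1.60%), all of which use the libraries of its selection. It overlapped for ERTU in WT, as did all but 0.756% of genes.

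**Figure D2:**
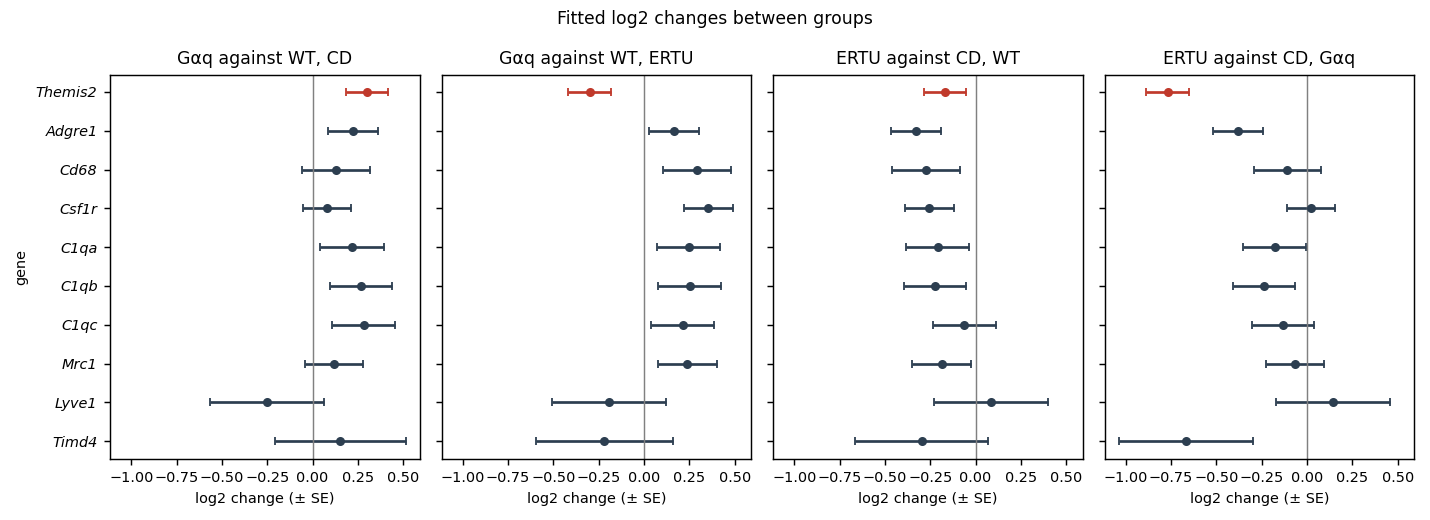
Log2 changes fitted by edgeR (x axes, points, with SE bars) of Themis2 (red) and the 9 macrophage genes (dark) in the 4 comparisons between pairs of groups; the comparisons share libraries. Themis2 stands at -0.77 for ERTU in Gαq and at -0.30 for Gαq on ERTU, where 7 of the other 9 genes lie above 0.

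Set against the 9 macrophage genes in the same library, Themis2 was lowest in Gαq ERTU. Its log2 CPM minus the mean log2 CPM of the 9 was -2.37 to -1.79 in WT CD, -2.52 to -1.95 in WT ERTU, -2.47 to -1.74 in Gαq CD and -2.98 to -2.41 in Gαq ERTU. Gαq ERTU thus lay below WT CD and overlapped WT ERTU and Gαq CD. The means were -2.19 ± 0.28 (SD, n = 4), -2.17 ± 0.22 (SD, n = 5), -2.04 ± 0.27 (SD, n = 5) and -2.63 ± 0.27 (SD, n = 4). In WT, Themis2 and the mean of the 9 went down with ERTU by like amounts of log2 CPM, -0.16 and -0.19. In Gαq the differences with ERTU were -0.75 for Themis2 and -0.16 for the 9. With Gαq on CD the differences were 0.29 and 0.14, and with Gαq on ERTU they were -0.29 and 0.17, of opposite sign. No test is given, since the selection of Themis2 fixes part of the direction.

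**Figure D3:**
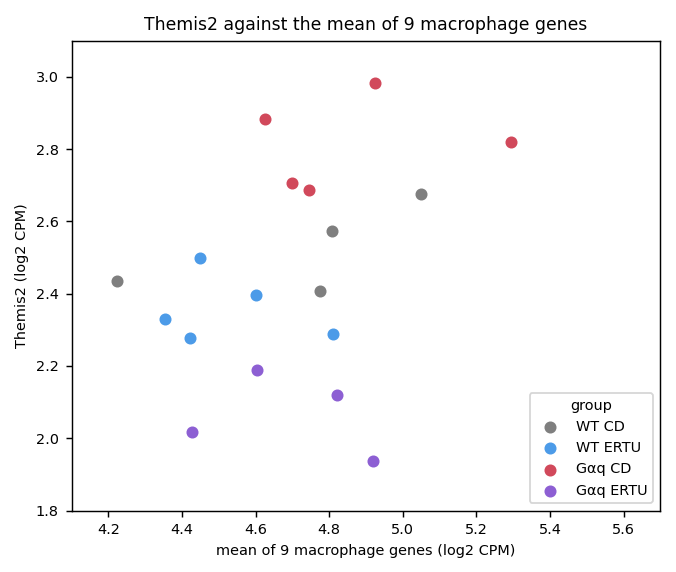
Themis2 (y axis, log2 CPM) against the mean of the 9 macrophage genes (x axis, log2 CPM) in each of the 18 libraries, coloured by group. The 4 Gαq ERTU libraries lie lowest for Themis2 (1.94 to 2.19) while their mean of the 9 (4.43 to 4.92) lies inside the range of the other groups (4.22 to 5.29).

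Among libraries of the same group the macrophage genes went together, and their correlation with Themis2 was lower. Log2 CPM was centred within each group and correlated over the 18 libraries, which share depth and scaling, as a description. C1qa, C1qb and C1qc had Pearson r of 0.95 to 0.96 with each other (Spearman rho 0.89 to 0.93). Over the 36 pairs of the 9 genes, r was positive in 35, with a median of 0.62. For Themis2 with each of the 9, r ran from -0.20 (Cd68) to 0.43 (Timd4), with a median of 0.15. With the mean of the other members, r was 0.21 for Themis2, 0.39 for Timd4, 0.40 for Csf1r and 0.62 to 0.95 for the remaining 7. Themis2 and Timd4 have the lowest counts of the 10 genes. Within groups Themis2 varied by 6.61% to 8.95%, against a counting error of 8.69% to 11.6%. With so little spread beyond read sampling, its r and the slope on it cannot show whether it goes with the macrophage genes. The slope on Themis2 within groups was called for 0 of the 9 genes and 0% of 16269 genes (edgeR, smallest adjusted p = 0.930), with 0 of 9 and 819 of all genes under 0.05 unadjusted. The smallest p values were those of F2rl1, Bhlhe41, Gm41442, Acad11 and Dpyd.

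**Figure D4:**
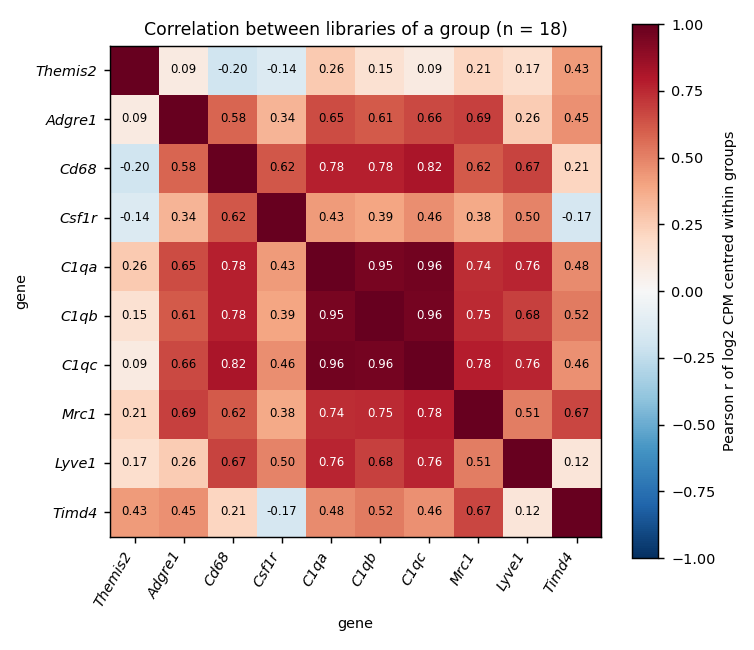
Pearson r (colour and printed value) between each pair of the 10 genes, from log2 CPM centred within groups over 18 libraries; both axes list the genes. The C1q chains form a block at 0.95 to 0.96, and the row of Themis2 runs from -0.20 to 0.43.

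The genes most like Themis2 over the 18 libraries were not among the 9. Of 13097 genes with mean log2 CPM of at least 1, the highest Pearson r was that of Marcks, an actin-binding substrate of protein kinase C (r 0.81, rho 0.82). Evi2a (r 0.80), C3ar1, the receptor of complement fragment C3a (r 0.79), P2ry13, an ADP receptor (r 0.79), and Ccr2, the chemokine receptor of monocytes (r 0.77), followed. Without the 2 libraries farthest from the median of Themis2, r was 0.66 to 0.78 for these genes. Within groups it was 0.29 to 0.65, so part of the likeness is the group pattern for which Themis2 was selected. Ccr2 had a median of 3.19 CPM in WT CD, 2.19 CPM in WT ERTU, 4.78 CPM in Gαq CD and 2.01 CPM in Gαq ERTU, the order of Themis2. The most opposite genes were Tmem82 (r -0.77), Gm2810 (r -0.75) and Gm15801 (r -0.74). Adgre1 (r 0.57) ranked 238 and Timd4 (r 0.51) 459 of the 13097, C1qb 1606, Csf1r 5701 and Lyve1 7747.

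The genes next after Themis2 for ERTU in Gαq did not pass the threshold in edgeR, while DESeq2 called Lcp2, Cx3cr1 and C3ar1. Lcp2 encodes SLP-76, an adaptor of immune receptor signalling. It was 2.36, 2.73, 2.20 and 2.64 CPM in WT CD, 3.06, 3.40, 2.03, 2.57 and 3.93 CPM in WT ERTU and 2.92, 2.49, 2.94 and 2.53 CPM in Gαq ERTU. In Gαq CD it was 4.86, 4.69, 6.13, 4.77 and 5.81 CPM. Lcp2 was thus high in Gαq CD alone, with the other 3 groups at like levels, whereas Themis2 in Gαq ERTU lay below both WT groups. Its log2 change was -0.95 ± 0.18 (SE) with ERTU in Gαq and 1.08 ± 0.18 (SE) for Gαq on CD, where it was called (edgeR, adjusted p = 0.000578), both from the same Gαq CD libraries. C3ar1 was 9.61 to 14.6 CPM in Gαq CD and 4.55 to 7.92 CPM in Gαq ERTU. Cx3cr1, the fractalkine receptor of macrophages and monocytes, was 9.75 to 25.2 CPM in Gαq CD and 3.95 to 8.26 CPM in Gαq ERTU, with adjusted p of 0.371 for both genes (edgeR). In WT CD, Cx3cr1 was 3.17 to 9.29 CPM and C3ar1 was 7.47 to 8.77 CPM, above or overlapping Gαq ERTU.

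**Figure D5:**
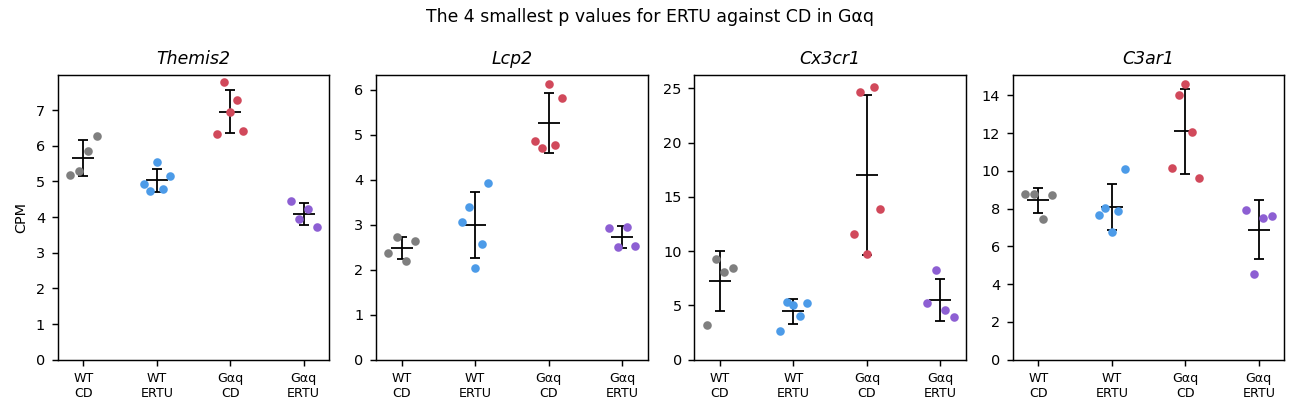
CPM (y axes, linear from 0) of Themis2, Lcp2, Cx3cr1 and C3ar1, the genes with the 4 smallest p values for ERTU in Gαq, in the 18 libraries (points) with group mean and SD (black bars). They were picked for that difference, for which edgeR called only Themis2 and DESeq2 called all 4; Gαq CD has the highest mean in each, and Gαq ERTU lies below both WT groups for Themis2 but not for Lcp2.

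Other macrophage and immune genes were read from 16 lists, chosen as the members were. Of the 121 listed genes, 104 could be tested. For diet, ERTU in WT, ERTU in Gαq and the interaction, edgeR called 0 of them, with 20, 3, 17 and 3 under 0.05 unadjusted. Of all 16270 genes tested, 1252, 365, 1240 and 313 were under 0.05 unadjusted. DESeq2 called Cx3cr1 for diet, and Cx3cr1, Lcp2 and C3ar1 for ERTU in Gαq. By genotype, where 9.72% of all genes were called higher and 9.92% lower, 2 of 13 further resident macrophage genes were called, both higher (1 to 4 called with 1 library left out). Fcgr1, a high-affinity IgG receptor, rose by 0.71 ± 0.18 (SE) in log2 (adjusted p = 0.00617, edgeR) and was called with any library left out. Cx3cr1 had a log2 change of 0.80 ± 0.25 (SE) (adjusted p = 0.0296, edgeR) and lost its call in 5 of 18 such fits, without WT CD 1, WT CD 4, Gαq CD 7, Gαq CD 9 or Gαq ERTU 17, with adjusted p up to 0.0652. Folr2 (-0.23 ± 0.19, SE) and Cd163 (-0.10 ± 0.24, SE), a folate receptor and a haemoglobin scavenger receptor of resident macrophages, were not called. The median of the 13 by genotype was 0.22 against 0.0038 over all genes. By diet 10 of the 13 were lower on ERTU and 3 higher, with none called by edgeR. Fcgr1 changed by -0.76 ± 0.18 (SE) by diet.

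Of 11 monocyte and recruited macrophage genes, 9 could be tested and 4 were called, all higher in Gαq, with a median log2 change of 0.47. Plac8, a monocyte gene, rose by 1.74 ± 0.34 (SE), with a mean of 0.235 CPM in WT CD, 0.112 CPM in WT ERTU, 0.629 CPM in Gαq CD and 0.538 CPM in Gαq ERTU. Itgax (CD11c) rose by 1.06 ± 0.26 (SE) and Spp1 (osteopontin) by 1.15 ± 0.30 (SE). Trem2, a lipid receptor, had a change of 0.47 ± 0.15 (SE) and kept its call in 6 of 18 fits with 1 library left out (adjusted p up to 0.0773). These 4 were low, at most 6.78 CPM in any library, and a filter at a mean CPM of 1 left 2 called. Ccr2, which was not called, had a log2 change of 0.33 ± 0.21 (SE) by genotype. With ERTU in Gαq its change was -1.20 ± 0.29 (SE), also not called (edgeR, adjusted p = 0.653). In that comparison 6 of the 9 were lower and 3 higher, with a median of -0.11. Of 8 genes of the CSF1 axis and myeloid transcription factors, 2 were called by genotype (1 without WT CD 2 to 3 without WT CD 5). Irf8 rose by 0.52 ± 0.11 (SE), and Maf changed by 0.26 ± 0.089 (SE) and kept its call in 5 of 18 fits (adjusted p up to 0.109). Csf1 (0.30 ± 0.15, SE) and Spi1, which encodes PU.1 (0.10 ± 0.11, SE), were not called.

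Of 13 signalling genes around Themis2, all 13 had a higher estimate in Gαq, with a median of 0.28, and 2 were called. Leaving out 1 library gave 1 (without WT CD 4) to 4 (without WT ERTU 15), and scaling by library totals gave 4. Plcg2, a phospholipase downstream of immune receptors, rose by 0.55 ± 0.11 (SE) (adjusted p = 0.000817, edgeR). Vav1, an exchange factor that Themis2 binds, had a change of 0.41 ± 0.13 (SE) and lost its call without WT CD 4 or Gαq ERTU 20 (adjusted p up to 0.0615). Grb2 (0.11 ± 0.067, SE) was not called. The relatives Themis and Themis3 were too low to test, with a sum of at most 0.469 CPM in any library.

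Of 10 genes of the complement pathway beyond C1q, 5 were called by genotype, all higher in Gαq (3 to 6 with 1 library left out, 4 by DESeq2), with a median of 0.41. C1ra and C1s1, which encode the proteases that join C1q, rose by 0.47 ± 0.11 (SE) and 0.35 ± 0.076 (SE), and C2, the next protease of the pathway, rose by 1.03 ± 0.27 (SE). Serping1, the inhibitor of C1, changed by 0.46 ± 0.15 (SE) and kept its call in 9 of 18 fits (adjusted p up to 0.0656). C3ar1 (0.15 ± 0.14, SE) was not called.

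Markers of other cells moved as well, and their part in the values above was not tested. The summed level of 6 pan-leukocyte genes was 72.0 to 94.4 CPM in WT CD, 58.3 to 88.2 CPM in WT ERTU, 97.1 to 145 CPM in Gαq CD and 81.9 to 89.1 CPM in Gαq ERTU. Gαq CD was highest here too, but Gαq ERTU lay within the range of WT, unlike Themis2. Of these genes 2 of 6 were called by genotype, Cd52 (0.78 ± 0.23, SE) and Ptprc (0.32 ± 0.096, SE), of which Ptprc lost its call without WT CD 1 or Gαq ERTU 17 (adjusted p up to 0.0569). Leaving out 1 library gave 1 to 4 called (4 without WT ERTU 14), and library totals, no filter and DESeq2 each gave 3. B cells also express Themis2. The sum of 8 B cell genes was 15.3 to 17.6 CPM in WT CD, 8.81 to 12.7 CPM in WT ERTU, 16.4 to 28.2 CPM in Gαq CD and 11.5 to 22.3 CPM in Gαq ERTU. Of the 8, 6 could be tested and 3 rose in Gαq, Cd79b by 1.79 ± 0.28 (SE), Ighd by 0.93 ± 0.26 (SE) and Ighm by 0.40 ± 0.11 (SE). Without Gαq ERTU 17, 5 were called. The B cell sum of Gαq ERTU overlapped that of both WT groups.

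Of 9 T and NK cell genes, 5 were tested and 2 called, Cd4 rising by 0.74 ± 0.16 (SE) and Lck at 0.87 ± 0.26 (SE), which lost its call without Gαq ERTU 20 (adjusted p = 0.0533). Without WT CD 1, 3 were called, and a filter at a mean CPM of 1 left 1. Of 7 dendritic cell genes 2 were called, with 1 to 3 called when 1 library was left out, 1 with no filter, 3 by DESeq2 and 0 with a filter at a mean CPM of 1. Clec9a rose by 1.50 ± 0.30 (SE), and Flt3 (1.06 ± 0.35, SE) kept its call in 9 of 18 fits (adjusted p up to 0.120). The summed T and NK cell genes were 2.89 to 4.92 CPM in WT CD, 2.83 to 4.85 CPM in WT ERTU, 5.59 to 8.998 CPM in Gαq CD and 4.66 to 6.07 CPM in Gαq ERTU, again highest in Gαq CD. None of 3 tested neutrophil genes and none of 2 tested mast cell genes was called by edgeR or DESeq2 (2 and 0 under 0.05 unadjusted). Ly6g, Cxcr2 and Camp stayed under 0.5 CPM in every library and Fcer1a at 0. Of 5 lymphatic endothelium genes 4 were tested, and Pdpn and Mmrn1 rose by 0.60 ± 0.14 (SE) and 0.71 ± 0.21 (SE), while the changes of Prox1 (-0.10 ± 0.15, SE) and Flt4 (0.15 ± 0.095, SE) were not called. Ccl21a was at 0 in every library. Only uniquely aligned pairs were counted, so this 0 need not mean that the gene was not expressed. The sum of the list overlapped between all groups, at 107 to 163 CPM in WT and 117 to 170 CPM in Gαq. Prox1 was the largest part of that sum, at group means of 69.8 to 84.7 CPM, so the sum says little about Pdpn and Mmrn1.

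Of 6 fibroblast genes 5 rose in Gαq, among them Col1a1 by 0.87 ± 0.19 (SE) and Lum by 0.97 ± 0.17 (SE), and their sum was 1280 to 2409 CPM in the WT groups and 2369 to 3436 CPM in the Gαq groups. Of 5 blood endothelium genes, Cdh5 and Tie1 were called lower, at -0.29 ± 0.089 (SE) and -0.24 ± 0.083 (SE), and scaling by library totals alone left neither called. With 1 library left out Cdh5 lost its call without WT CD 5 or Gαq ERTU 16 (adjusted p up to 0.0591), and Tie1 kept its call in 5 of 18 fits (adjusted p up to 0.0987). Of 7 cardiomyocyte genes 3 were called lower. The log2 change was -0.46 ± 0.13 (SE) for Myh6 and -0.82 ± 0.15 (SE) for Ryr2, and Tnni3 (-0.27 ± 0.090, SE) kept its call in 6 of 18 fits (adjusted p up to 0.0965).

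Between the CD groups 15 of the 104 listed genes were called, where 8.10% of all genes were. Between the ERTU groups 12 were called, where 8.17% of all genes were, and by genotype 36, where 19.6% were. Whether the changes differed between diets was tested by the interaction above. For Gαq on CD, Cx3cr1, Itgam, Itgax, Irf8, Plcg2, Lcp2 and Coro1a were called higher among the macrophage, monocyte, signalling and pan-leukocyte genes. For Gαq on ERTU, Siglec1, Plac8 and Plcg2 were. Among the lymphocyte and dendritic cell genes, Cd79b, Cd4 and Clec9a were called higher on CD, and Cd79b and Ighm on ERTU. Of all these only Lcp2 and Cd4 on CD and Plac8 and Cd79b on ERTU were called with any 1 library left out.

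The annotated neighbours of Themis2 did not show its pattern. Rpa2, a subunit of a DNA-binding replication protein, lies on the opposite strand and ends 3091 bases from the end of Themis2. The mean level of Rpa2 in Gαq hearts was 16.7 ± 2.32 CPM on CD (SD, n = 5) and 20.4 ± 2.04 CPM on ERTU (SD, n = 4). Its log2 change with ERTU in Gαq was 0.29 ± 0.14 (SE) (adjusted p = 0.656, edgeR). Ppp1r8, a regulator of protein phosphatase 1, lies 30542 bases away and changed by 0.0065 ± 0.10 (SE).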

How the data were processed

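RNA of frozen left ventricle was sequenced as poly(A)-selected paired ends. Per the labels and the study's methods, the authors aligned reads to mm10 with STAR 2.6.0c and used featureCounts (Subread 1.6.2) to count unique pairs on nuclear-encoded genes. The deposited table holds raw counts per Ensembl gene, and a second deposited table holds log2-like variance-stabilized values made by the authors with DESeq2, used here only as an alternative. Of 55450 IDs, 99.4% matched GENCODE M21 symbols.

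Counts were tested with the quasi-likelihood F test of edgeR 4.0.16 (R 4.3.3) after TMM scaling and filterByExpr (minimum count 10). Genes left out held 0.0906% of counts. Genotype and diet came from a two-factor model, and the 4 pairs of groups and the interaction from a fit of group means. The Benjamini-Hochberg adjustment ran over every gene tested, and 0.05 was the threshold. SEs of log2 changes were taken from the F statistic. For log2 CPM, 2 was the prior count. The tests were tried on simulated data. For the slope, the simulated Themis2 had far more counts and varied more within groups than the real one. What the slope could find at the real counts was not tried. Alternatives were other scaling, filters, DESeq2 1.42.0, fits of 2 groups, transformed values and leaving out each library. Counting error covers read sampling only.

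The members, lists and rules were chosen with earlier results of these data known. Named genes are the 10 members, listed genes called in a comparison (at most 6 a list), defining genes near 0, the 5 genes most and 3 least like Themis2, the 5 smallest p for the slope, the next gene after Themis2, neighbours and Gnaq. Genes named beyond this rule were chosen after their values were seen: Cx3cr1 and C3ar1 among the next genes, and Folr2, Cd163, Ccr2, Csf1, Spi1, Grb2, Prox1 and Flt4 as listed genes that were not called. The values of 1 listed gene are not reported here. Groups follow the labels. Column numbers could not be linked to the numbers of the labels.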

Additional observations from a re-analysis of the deposited data

Results flagged for a closer look

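In Gαq CD, library 8 stood apart for C1qb, at 68.7 CPM where the other 4 libraries of the group held 40.2 to 46.8 CPM. Its gap to the nearest library was 0.768 of the range of the group, above the critical value of 0.71 for 5 samples. The same library was highest of all 18 for C1qa (100 CPM), C1qc (72.5 CPM), Adgre1 (21.0 CPM) and Cd68 (17.2 CPM), while its Themis2, at 6.95 CPM, was the median of its group. Of 44 sets of values examined in this way, 1 stood apart, and chance alone gives about 2.2.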

How the results depend on the processing

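No paired analysis was possible because the column numbers of the count table run over the whole series and no number is shared between groups. Of the counts and group values recomputed, 232 were unchanged in direction and side of the threshold, 7 moved and 1 passed it, and of the values of single genes 571 were unchanged, 8 reversed (all Timd4), 8 lost their call and 1 gained it. Leaving out 1 library at a time gave 0 to 1 of the 9 macrophage genes called by genotype, the 1 being Csf1r without WT CD library 5. Themis2 minus the mean of the 9, a difference of log2 CPM, moved with its definition: with variance-stabilized values to -1.90 in WT CD, -1.87 in WT ERTU and -2.22 in Gαq ERTU, and with the median of the 9 to -2.78, -2.80 and -3.29 in those groups and -2.75 in Gαq CD, with Gαq ERTU lowest each time. Timd4 by genotype turned from -0.025 to 0.021 with library totals only, and with 1 library left out it ranged from -0.13 to 0.10. Calls of Maf and Flt3 by genotype were lost without the low-count filter, that of Cdh5 with library totals only, and those of Tie1 and Tnni3 with either no filter or library totals. By DESeq2, 2 genes were called for diet where edgeR called 0 of 16270 (1252 under 0.05 unadjusted), and 4 for ERTU in Gαq where edgeR called 1. Depth limits Themis2, with 71 to 161 read pairs a library. Timd4 had 13 to 84, and its coefficient of variation within groups, 22.9% to 50.9%, exceeded its counting error of 13.5% to 17.6%.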
